A study of Mus musculus with 23 samples.

Results

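LKS cells generated from mouse ESCs in a Spinner flask were set against LKS cells taken from fetal liver (FL), over all probes of the array. LKS cells lack lineage markers and carry ckit and Sca-1 on their surface. The members are the 3 Spinner arrays and the 3 FL arrays among the 23 arrays of the series, chosen by their labels. The Spinner cells came from 1 ESC line, R1, which was expanded on inactivated embryonic fibroblasts and differentiated for 7 days as embryoid bodies in a stirred flask. The FL cells were isolated from embryos at embryonic day 15. The labels give the strain 129X1/SvJ x 129S1 for both groups. FL cells were depleted of cells carrying CD5, CD45R/B220, CD11b, Gr-1, 7-4 or Ter-119 before the sort on ckit and Sca-1, whereas ESC-derived cells were sorted without that depletion. The other arrays read LKS cells of Static and Synthecon cultures, also at day 7, and undifferentiated ESCs. They also read LKS cells of adult bone marrow (BM), labelled with an age of 10 weeks. All 6 samples are labelled biological replicates, but the labels do not name the culture or litter of each, so p-values measure only the spread between arrays. For each probe that spread was pooled within the groups of all 23 arrays, and not taken from these 6 alone. For Nanog the SE was 0.67, with SDs of 0.13 in Spinner, 0.24 in FL and 2.65 in Static cells.

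In the fetal liver, haematopoietic stem and progenitor cells expand beside maturing red cells, macrophages and hepatocytes. The stem cell state is held by transcription factors such as Tal1, Lmo2, Runx1 and Gata2, and commitment to a lineage brings in globins, granule proteases or antigen receptor components. ESCs are held in the pluripotent state by Pou5f1, Nanog and Sox2. When they differentiate, these genes are switched off and genes of epiblast, endoderm, mesoderm and then blood are switched on in turn.

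Values are the deposited quantile-normalized log2 signals, and a probe whose detection p was below 0.01 counted as above background. The lowest values above background lay between 6.71 and 7.02 across the arrays, and differences between dim probes are compressed on this scale. Between 10494 and 11021 probes were above background on the Spinner arrays and between 9785 and 10394 on the FL arrays. Euclidean distances over all probes were 33.2 to 46.1 among the Spinner arrays, 47.6 to 97.1 among the FL arrays and 154.3 to 166.3 between the groups. FL replicate 3 stood apart. Of 8246 genes above background on an FL array, 151 were higher there than in both other FL arrays by at least 2.0 on the log2 scale and 66 were lower by that margin. Its macrophage, B-lineage and MHC class II genes were high and its erythroid and mast cell genes were low, so results on these genes are given with and without it. Spinner replicates 1 and 2 were read on 1 slide and were the closest pair of arrays (33.2), so the Spinner group may hold fewer than 3 independent samples. Counted as 1 sample, they left 2909 probes higher and 2783 lower in Spinner cells. Spinner replicate 3 was read on another slide together with the FL arrays, and was higher than both other Spinner arrays by at least 1.0 for 63 genes and lower for 30 of 8591. With 3 arrays a group, the number of arrays limits the precision of every value.

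The surface markers used for the sort could be checked only in part. No probe read Kit. Ly6a, which encodes Sca-1, had values of 9.52, 9.65 and 8.92 on the Spinner arrays and 8.01, 8.28 and 9.32 on the FL arrays. FL replicate 3 lay within the Spinner range, and the difference of 0.82 ± 0.52 (SE) did not pass the test (limma, adjusted p = 0.29). The Ly6a level of the Spinner cells also did not differ detectably from that of undifferentiated ESCs, which was 9.94 ± 1.68 (SD, n = 3). Ptprc, the pan-leukocyte antigen CD45, had values of 5.89, 5.73 and 5.91 on the Spinner arrays, none above background, and 6.97, 6.96 and 7.98 on the FL arrays. Cd34, a surface antigen of progenitors, was at 6.30, 6.28 and 6.29 in Spinner cells and at 8.88, 9.13 and 8.75 in FL cells. Of 29 pan-leukocyte genes measured, 20 were above background on no Spinner array and 3 on no FL array. The Spinner arrays therefore held few of the transcripts that define blood cells, and the FL arrays held those of maturing erythroid and myeloid cells beside those of progenitors. In such bulk samples, fewer cells of a type and less RNA per cell cannot be told apart.

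Pluripotency genes were among the genes most raised in Spinner cells, and granule and haemoglobin genes were among the most reduced. Over 17973 genes, 2762 were higher in Spinner than in FL cells (15.4%) and 2458 were lower (13.7%) at an adjusted p under 0.05 (limma, Benjamini-Hochberg over all probes). The arrays of the groups did not overlap for 7942 genes (44.2%) and 10913 probes (42.5%). A change of at least 5-fold was found for 841 genes (4.68%), with 421 higher (2.34%) and 420 lower (2.34%). Of those 421 genes, 265 were above background on no FL array, and 388 were above background on all 3 arrays of undifferentiated ESCs. Of the 420 lower genes, 277 were above background on no Spinner array, and 392 were above background on all 3 BM arrays. Over 25697 probes, 3514 were higher and 3454 lower, and 1018 (3.96%) changed by at least 5-fold. Within the slide that holds all FL arrays and Spinner replicate 3, the test found 2319 probes higher and 1516 lower.

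**Figure D1:**
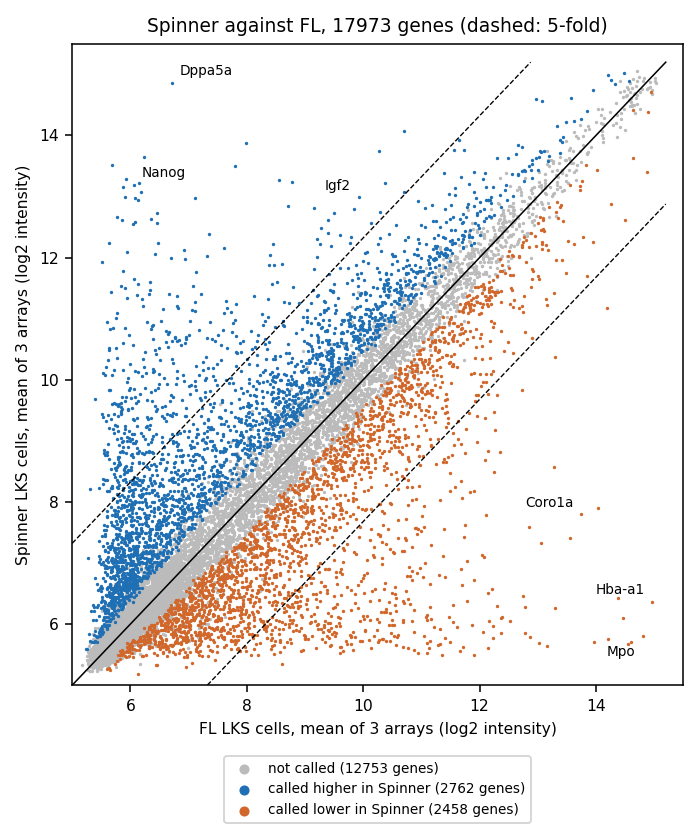
Mean log2 signal of each gene in Spinner cells (vertical axis, n = 3 arrays) against its mean in FL cells (horizontal axis, n = 3 arrays), with called genes in colour and dashed lines at a 5-fold difference. The 421 genes 5-fold higher in Spinner cells and the 420 genes 5-fold lower lie in about equal numbers on either side, most of them at the background level of the group in which they are lower.

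The 15 genes with the largest fitted rise in Spinner cells included Dppa5a, an RNA-binding protein of pluripotent cells. Values at background have no order, so no rank among these genes is read. Its values were 14.85, 14.96 and 14.76 in Spinner cells and 6.36, 7.32 and 6.46 in FL cells. Among the FL arrays only replicate 2 was above background for it, and the log2 fold change was 8.14 ± 0.46 (adjusted p = 3.4e-12). Dppa4, a chromatin protein of early embryos, had values of 13.74, 13.45 and 13.34 in Spinner cells and 5.63, 5.84 and 5.57 in FL cells, and Rhox5, a homeobox gene on the X chromosome, had 13.85, 13.92 and 13.20 in Spinner cells and 6.25, 6.36 and 6.08 in FL cells. Every Spinner array lay far above every FL array for these genes, and the folds were at least 95.7 and at least 106. Nanog, a core factor of the pluripotent state, had values of 13.27, 13.25 and 13.04 in Spinner cells and 5.96, 6.34 and 5.89 in FL cells (at least 76.3-fold, adjusted p = 1.9e-08). Pou5f1, which encodes Oct4, had 12.73, 12.42 and 12.69 in Spinner cells and 5.78, 5.88 and 5.90 in FL cells (at least 51.3-fold, adjusted p = 4.5e-08). For both factors the Spinner arrays agree closely and the FL arrays are at background. The others named here were Esrrb, a transcription factor of ESCs, Sall4, a zinc finger factor that works with Pou5f1, Dnmt3l, the cofactor of de novo DNA methylation, Otx2, a homeobox factor of the epiblast, Ooep, a protein of oocytes and early embryos, Trh, a hormone precursor, Fabp3, a fatty acid binding protein, and the amino acid enzymes Gldc and Tdh. The genes named here rose by 6.62 to 8.14 on the log2 scale. All of them but Dppa5a were above background on no FL array, so their folds are lower bounds, taken against the lowest signal above background on each array.

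All 15 genes were also above background on every array of undifferentiated ESCs. Against those ESCs 3 of the 15 were higher in Spinner cells and none was lower. Otx2 had values of 12.62, 12.83 and 12.54 in Spinner cells and 5.83, 5.78 and 5.70 in FL cells, and averaged 9.28 ± 0.38 (SD, n = 3) in undifferentiated ESCs. Its difference from those ESCs was 3.38 ± 0.62 (adjusted p = 0.0012). Fabp3 averaged 13.15 ± 0.30 in Spinner cells and 10.47 ± 0.22 in undifferentiated ESCs, and Rhox5 averaged 13.65 ± 0.40 in Spinner cells and 12.02 ± 0.21 in undifferentiated ESCs. Pou5f1 averaged 12.61 ± 0.17 in Spinner cells and 12.64 ± 0.29 in undifferentiated ESCs, a difference well within the spread of the arrays.

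The 15 genes with the largest fitted fall included Mpo, the myeloperoxidase of neutrophil granules. Its values were 5.68, 6.00 and 5.72 in Spinner cells and 14.56, 14.95 and 14.94 in FL cells, at least 261-fold lower (log2 fold change -9.02 ± 0.79, adjusted p = 5.9e-09). S100a8, a calcium-binding protein of neutrophils and monocytes, had values of 5.53, 5.63 and 5.94 in Spinner cells and 14.51, 14.75 and 14.54 in FL cells, and its partner S100a9 had 5.66, 5.59 and 6.00 in Spinner cells and 14.23, 14.18 and 14.19 in FL cells. All Spinner values for these genes were at background and all FL values were near the top of the scale. Stfa1, a cysteine protease inhibitor of the stefin family, was at 5.70, 5.70 and 5.63 in Spinner cells and at 14.26, 14.94 and 14.47 in FL cells, at least 219-fold lower. Hba-a1, an adult alpha globin, had values of 5.95, 5.72 and 7.42 in Spinner cells and 15.09, 15.09 and 14.71 in FL cells. Spinner replicate 3 was the highest Spinner array and the only one above background for this globin, but it stayed far below the FL arrays. FL replicates 1 and 2 were at the highest value of the scale, so no fold is given (log2 difference -8.60, adjusted p = 5.9e-08). The others named here were the serine proteases Prtn3 and Ctsg, Lcn2, an iron-siderophore binding protein, and Prg2, the eosinophil major basic protein, the lysozymes Lyz1 and Lyz2, the protease Ctse, a further stefin family member, Cstdc4, and Eraf, the globin-stabilizing protein of red cells. The genes named here fell by 6.53 to 9.02 on the log2 scale, and all of them but Hba-a1 were above background on no Spinner array. The stefins, the lysozymes and the globins are families of near-identical copies whose probes may read more than 1 gene, and 1 probe for Lyz1 differed in sign from the brightest. Without FL replicate 2 the log2 fold change of Lcn2 was -5.91.

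**Figure D2:**
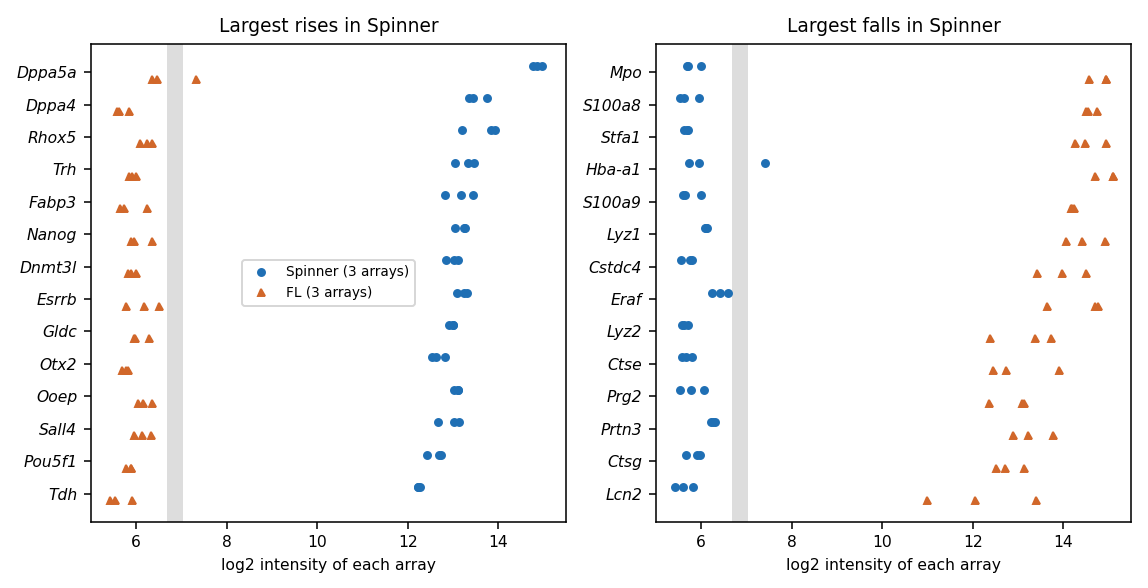
Log2 signal on each array (horizontal axis) for the genes named above among the 15 with the largest rise and the 15 with the largest fall in Spinner cells, with a point for each of the 3 Spinner and 3 FL arrays. These genes were chosen among those without overlap between the groups, which are 7942 of 17973 genes (44.2%). Spinner replicate 3 lies above the other Spinner arrays for Hba-a1 (7.42, against 5.95 and 5.72).

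The promoters of some of these genes, and of the erythroid gene Alas2, are shown as chosen examples that hold a searched word. For each gene the 250 bases before the RefSeq start in GRCm38.p6 were searched on both strands for a fixed set of letters, given in capitals. These were TTTGCAT, the octamer-like word bound by POU factors, for the pluripotency genes, GAGGAAGT, an ETS word of the kind bound by PU.1, for the granule genes, and AGATAA, read by GATA factors, for the erythroid genes. The sequences are of Nanog at chr6:122707239-122707488, Mpo at chr11:87793534-87793783, Prtn3 at chr10:79879417-79879666, S100a8 at chr3:90668821-90669070 and Alas2 at chrX:150547167-150547416, all on the plus strand. In S100a8 and Alas2 the word is on the opposite strand, and Nanog has 2 listed starts, of which the one shown holds the word.
Nanog: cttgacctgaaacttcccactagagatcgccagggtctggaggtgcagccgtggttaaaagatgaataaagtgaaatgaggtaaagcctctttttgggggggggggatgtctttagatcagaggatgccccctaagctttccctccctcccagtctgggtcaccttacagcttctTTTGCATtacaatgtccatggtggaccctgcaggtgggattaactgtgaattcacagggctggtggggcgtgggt
Mpo: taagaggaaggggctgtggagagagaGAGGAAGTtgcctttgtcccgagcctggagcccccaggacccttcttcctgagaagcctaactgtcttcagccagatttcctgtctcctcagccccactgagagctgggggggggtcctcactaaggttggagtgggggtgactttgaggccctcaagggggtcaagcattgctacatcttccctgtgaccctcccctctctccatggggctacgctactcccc
Prtn3: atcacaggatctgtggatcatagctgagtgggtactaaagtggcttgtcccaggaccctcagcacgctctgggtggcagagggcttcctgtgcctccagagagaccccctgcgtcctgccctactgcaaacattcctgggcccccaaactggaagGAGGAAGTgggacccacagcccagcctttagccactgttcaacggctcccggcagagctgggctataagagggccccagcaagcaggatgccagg
S100a8: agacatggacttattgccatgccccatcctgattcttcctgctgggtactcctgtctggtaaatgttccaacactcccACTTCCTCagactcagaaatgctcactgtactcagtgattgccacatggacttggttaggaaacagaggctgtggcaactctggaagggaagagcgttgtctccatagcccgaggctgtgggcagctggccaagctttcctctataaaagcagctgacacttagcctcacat
Alas2: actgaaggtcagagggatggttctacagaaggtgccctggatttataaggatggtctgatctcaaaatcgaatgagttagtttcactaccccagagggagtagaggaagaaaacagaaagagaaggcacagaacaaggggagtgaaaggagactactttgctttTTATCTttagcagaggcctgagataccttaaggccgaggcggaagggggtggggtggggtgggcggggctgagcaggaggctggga
The octamer-like word was found before 4 of the 20 core pluripotency genes with a promoter in the table (Sox2, Nanog, Zfp42 and Spp1) and of 4.651% of all 27025 genes counted in the same way, on any listed start. The ETS word was found before 5 of 16 neutrophil granule genes (Mpo, Elane, Prtn3, S100a8 and Mmp8) and of 2.794% of all genes. The GATA word was found before 7 of 17 definitive erythroid genes (Alas2, Epor, Epb42, Trim10, Kel, Rhd and Icam4) and of 11.43% of all genes. The GATA word was also found before 4 of the 16 neutrophil granule genes (25.0%). Of the 15 largest rises, 10 had a promoter in the table, and the octamer-like word was found before 1, Nanog. Of the 15 largest falls, 11 had a promoter in the table, with the ETS word before 3 and the GATA word before 2. Over the 32851 promoters taken singly, the shares were 4.125%, 2.441% and 9.988% for the octamer-like, ETS and GATA words. These matches describe letters in a fixed window, with no measure of binding.

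Core pluripotency genes rose as a block in Spinner cells. Of 30 measured, 27 were higher and none was lower than in FL cells, with a median log2 fold change of 4.01, against -0.0046 over all genes. Without FL replicate 3 the count was 28, and within the slide that holds all FL arrays it was 27. Sox2, the partner of Pou5f1, had values of 8.76, 8.95 and 9.68 in Spinner cells and 5.91, 6.04 and 5.72 in FL cells, at least 4.58-fold higher. Lin28a, an RNA-binding protein that blocks let-7 maturation, was at 10.25, 10.37 and 10.42 in Spinner cells and at 6.06, 6.43 and 6.19 in FL cells, at least 10.6-fold higher. All Spinner arrays were above all FL arrays for both genes, as they were for 23.4% of all genes. The 3 members that did not pass the test were Klf4, Nr0b1 and Prdm14. Klf4, a reprogramming factor that blood progenitors also express, had 9.89, 10.51 and 10.24 in Spinner cells and 8.34, 9.0 and 9.78 in FL cells (adjusted p = 0.077). Klf4 passed the test without FL replicate 3 (1.54, adjusted p = 0.029). Against undifferentiated ESCs, 1 of the 30 genes was higher in Spinner cells and none was lower, with a median of 0.18.

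Germline and developmental pluripotency genes rose in part. Of 25 measured, 15 were higher, none was lower, and 11 were above background on no Spinner array. Dppa3, a protein that protects maternal methylation marks, had values of 10.43, 9.79 and 10.13 in Spinner cells and 5.68, 5.49 and 5.43 in FL cells (at least 9.07-fold). Rhox9, of the same X-linked cluster as Rhox5, had 11.25, 10.77 and 10.81 in Spinner cells and 5.40, 5.59 and 5.81 in FL cells (at least 16.1-fold), and Tex19.1, which restrains retrotransposons in germ cells, was at least 15.6-fold higher. The Spinner arrays lay together and above background for each of these genes. In this group 8 genes were higher than in undifferentiated ESCs and 1 was lower. Rhox9 averaged 10.94 ± 0.27 in Spinner cells and 7.86 ± 0.63 in undifferentiated ESCs (difference 3.08 ± 0.55, adjusted p = 0.00093), and Dppa3 averaged 10.12 ± 0.32 in Spinner cells and 7.82 ± 0.47 in undifferentiated ESCs (difference 2.29 ± 0.58, adjusted p = 0.017).

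Genes of the primed epiblast, the stage after the naive ESC state, were also higher. Of 15 measured, 11 were higher than in FL cells and none was lower, with a median of 1.91. Fgf5, a growth factor of the primed epiblast, had values of 8.22, 8.52 and 8.40 in Spinner cells and 5.64, 5.24 and 5.70 in FL cells (at least 2.73-fold, adjusted p = 2.4e-07). Its level was also higher than in undifferentiated ESCs, at 8.38 ± 0.15 in Spinner cells and 6.90 ± 0.45 in undifferentiated ESCs (difference 1.48 ± 0.32, adjusted p = 0.0049). Pou3f1, a POU factor of the epiblast, was at least 4.51-fold higher than in FL cells, Cldn6, a tight junction protein of early epithelia, at least 21.2-fold, and Nodal, the ligand that keeps epiblast identity, at least 4.40-fold.

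Primitive streak and mesoderm genes were mostly low in both groups. Of 27 measured, 8 were higher and 1 was lower in Spinner cells, and 17 were above background on no Spinner array. T, the brachyury factor of early mesoderm, had 6.21, 6.24 and 6.54 in Spinner cells and 5.68, 5.47 and 5.73 in FL cells, and Mixl1, a streak homeobox factor, had 5.75, 5.66 and 5.86 in Spinner cells and 5.64, 5.62 and 5.49 in FL cells. Neither gene was above background in either group. Kdr, the receptor of blood and vessel precursors, was also at background, at 6.01, 5.79 and 6.08 in Spinner cells and 6.00, 5.68 and 6.11 in FL cells. Gsc, a streak homeobox factor, was higher, with 7.78, 7.86 and 7.93 in Spinner cells and 5.68, 5.69 and 5.44 in FL cells (at least 1.90-fold, adjusted p = 1.6e-05), and the streak growth factor Fgf8 and Bmp4 were at least 1.81-fold and at least 3.92-fold higher. Tbx6, a factor of paraxial mesoderm, was lower, at 6.52, 6.94 and 6.76 in Spinner cells and 7.95, 7.12 and 7.45 in FL cells (adjusted p = 0.018). Tbx6 lost this call without FL replicate 1 (-0.54, adjusted p = 0.14), without Spinner replicate 1 (-0.65, adjusted p = 0.092) and within the slide that holds all FL arrays (-0.75, adjusted p = 0.15).

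Genes of extraembryonic endoderm were higher, with a wide spread within the Spinner group. Of 34 measured, 18 were higher and 4 were lower, with a median of 1.25. Gata6, which specifies primitive endoderm, had values of 9.74, 10.71 and 8.64 in Spinner cells and 5.86, 6.32 and 5.87 in FL cells (at least 6.79-fold, adjusted p = 1.4e-06). Lama1, a laminin chain of the first basement membranes, had 11.72, 12.65 and 10.46 in Spinner cells and 5.81, 7.06 and 6.15 in FL cells, 38.6-fold higher. For both genes Spinner replicate 2 was the highest and replicate 3 the lowest, and the groups did not overlap, as for 44.2% of all genes. The same order held for Spink1, a secreted protease inhibitor, with 11.78, 12.26 and 9.94 in Spinner cells and 6.15, 6.34 and 6.10 in FL cells, and for Sox17, an endoderm factor that also marks blood-forming endothelium, with 8.17, 8.83 and 7.14 in Spinner cells and 6.36, 6.02 and 6.35 in FL cells (adjusted p = 0.039). Gata4, a further endoderm factor, did not differ detectably (0.08 ± 0.17, adjusted p = 0.83). Without Spinner replicate 3, 19 genes were higher and 3 lower, and within the slide that holds all FL arrays 12 were higher and 3 lower. The 4 lower genes were Afp, Apoa2, Trf and Thbd, and Trf, the iron carrier transferrin, had 6.65, 6.75 and 7.00 in Spinner cells and 8.93, 9.49 and 11.62 in FL cells. Without FL replicate 3 the log2 fold change of Trf was -2.41, and without Spinner replicate 3 that of Spink1 was 5.82. Sox17 lost its call when any array other than Spinner replicate 3 was left out (1.41, adjusted p = 0.18, without Spinner replicate 2), and Apoa2 lost its call when any array other than FL replicate 3 was left out (-0.48, adjusted p = 0.26, without FL replicate 2). Within the slide that holds all FL arrays Gata6 was at 2.63, Lama1 at 4.13 and Spink1 at 3.74 on the log2 scale, all still called, and Sox17 at 0.89 (adjusted p = 0.53).

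Matrix genes were also higher, but this group shares members with the endoderm group, among them Lama1, Sparc and Col4a1. The counts of the groups are therefore not independent. Of 32 basement membrane and matrix genes, 22 were higher in Spinner cells and none was lower, with a median of 2.62. Sparc, a matrix glycoprotein, had 12.10, 12.71 and 11.11 in Spinner cells and 6.20, 7.73 and 6.89 in FL cells (32.8-fold, adjusted p = 2.2e-08). Col4a1, a chain of collagen IV, had 12.43, 13.29 and 10.74 in Spinner cells and 7.57, 8.64 and 6.61 in FL cells (23.3-fold). Spinner replicate 3 was again the lowest Spinner array, and it was higher than each FL array. Ccn2, a matricellular growth regulator, was 32.9-fold higher, with an FL replicate 2 that stood above the other FL arrays (12.52, 12.65 and 11.99 in Spinner cells, against 6.58, 8.81 and 6.65 in FL cells). Col18a1, which gives rise to endostatin, was 17.4-fold higher, at 12.84 ± 0.08 in Spinner cells, 12.81 ± 0.27 in undifferentiated ESCs and 8.72 ± 1.06 in FL cells (SD, n = 3 each). The log2 fold change of Ccn2 was 5.77 without FL replicate 2, that of Col18a1 was 3.51 without FL replicate 3, and that of Col4a1 was 5.25 without Spinner replicate 3 and 3.13 within the slide that holds all FL arrays.

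Most epithelial genes were higher as well. Of 29 genes of keratins and junctions, 22 were higher and 1 was lower. Cdh1, the E-cadherin of epithelia and ESCs, had 11.16, 11.31 and 10.42 in Spinner cells and 6.34, 6.67 and 6.57 in FL cells (at least 16.4-fold, adjusted p = 1.1e-07). Esrp1, an epithelial splicing factor, had 11.73, 11.51 and 11.38 in Spinner cells and 5.83, 5.92 and 5.74 in FL cells, and Krt8, a simple-epithelium keratin, had 10.63, 10.76 and 10.72 in Spinner cells and 7.09, 7.08 and 6.72 in FL cells. All these genes separated the groups without overlap, as did 44.2% of all genes. The naming rule favours large changes, so nothing further is read from this. Of 22 trophoblast genes, 9 were higher, none was lower and 13 were not called, with a median of 0.21. The higher ones included Tfap2c, a factor shared by trophoblast, germ cells and ESCs (at least 48.9-fold), Igfbp2, a binding protein of insulin-like growth factors (at least 31.8-fold), and Wfdc2 (at least 39.7-fold). Cdx2, the defining factor of trophectoderm, was at background throughout, with 5.93, 5.45 and 6.08 in Spinner cells and 5.72, 6.04 and 5.79 in FL cells.

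Of 27 smooth muscle and cardiac genes, 10 were higher and 1 was lower. Acta2, smooth muscle actin, had 10.75, 10.25 and 13.17 in Spinner cells and 6.13, 6.23 and 5.97 in FL cells (at least 22-fold, adjusted p = 8.7e-06). Spinner replicate 3 was far above the other Spinner arrays, and without it the log2 fold change of Acta2 was 4.39, against 5.28 with it. Myl3, a cardiac myosin light chain, had 8.58, 9.31 and 7.73 in Spinner cells and 6.03, 5.82 and 5.80 in FL cells, with replicate 3 the lowest. Within the slide that holds all FL arrays Myl3 was not called (1.85, adjusted p = 0.071). The lower gene was Mef2c, a factor used in muscle and in blood, with 6.20, 6.03 and 6.50 in Spinner cells and 9.83, 10.44 and 10.93 in FL cells (at least 12.2-fold lower).

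Signalling genes of the Wnt, BMP, Nodal and FGF pathways were higher or not called. Of 52 measured, 27 were higher and none was lower. Lefty2, Gdf3 and Tdgf1, named below, are also counted among the core pluripotency genes. Among ligands and antagonists, Lefty2, a Nodal antagonist, had 9.36, 9.35 and 10.15 in Spinner cells and 5.51, 5.88 and 5.77 in FL cells, and Gdf3, a ligand of the same family, was 9.12-fold higher. Among receptors, Tdgf1, the Nodal co-receptor Cripto, was at least 14.0-fold higher, Fzd7, a Wnt receptor of ESCs, 11.9-fold, and Bmpr1a, a BMP receptor, at least 4.78-fold. Tcf7l1, the transcriptional repressor of the Wnt pathway in ESCs, had 11.39, 11.43 and 11.41 in Spinner cells and 6.89, 7.03 and 7.73 in FL cells (18.2-fold, adjusted p = 4e-12). The groups did not overlap for any of these genes, which were named mostly for large changes, nor for 44.2% of all genes. Wnt3, Wnt3a and Wnt5a, ligands of the streak and later mesoderm, were above background in neither group, although Wnt3a passed the test without FL replicate 2 (adjusted p = 0.036), without Spinner replicate 2 (adjusted p = 0.016) or within the slide that holds all FL arrays (adjusted p = 0.031).

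**Figure D3:**
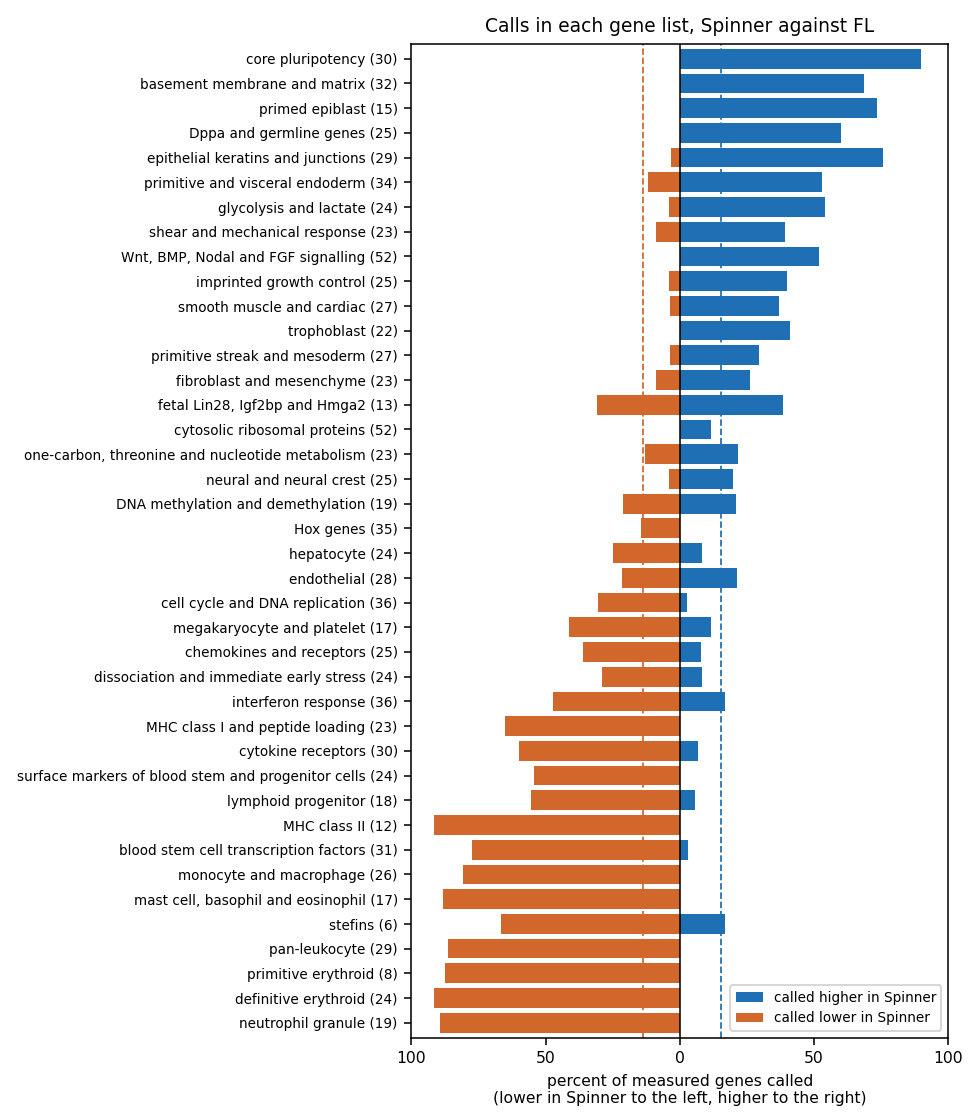
Share of the measured genes of each gene group that were higher (right of 0) or lower (left of 0) in Spinner than in FL cells, in percent, with dashed lines at the shares over all 17973 genes, 15.4% higher and 13.7% lower. Pluripotency, epithelial and matrix groups lie far on the higher side and the blood groups far on the lower side.

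Red cell genes were lower in Spinner cells. Of 24 definitive erythroid genes measured, 22 were lower and none was higher, with a median of -3.98, and 16 were above background on no Spinner array. Alas2, the erythroid enzyme that starts haem synthesis, had 5.77, 5.70 and 5.84 in Spinner cells and 14.18, 12.67 and 9.86 in FL cells (at least 43.8-fold lower, adjusted p = 2.7e-05). Slc4a1, the band 3 anion exchanger, had 7.78, 7.96 and 7.98 in Spinner cells and 14.59, 14.70 and 12.81 in FL cells, 70.0-fold lower. Kel, a red cell surface antigen, had 5.84, 5.50 and 5.52 in Spinner cells and 13.47, 12.33 and 9.35 in FL cells. FL replicate 3 was the lowest FL array for each gene, and it stood well above the Spinner arrays. Without FL replicate 3, 22 genes were again lower, but within the slide that holds all FL arrays 13 were. On the log2 scale Alas2 differed by -7.65 without FL replicate 3 and by -5.49 without FL replicate 1, Kel by -7.28 and -5.22, and Slc4a1 by -6.74 without FL replicate 3. Epb42 and Sptb, which encode membrane skeleton proteins, did not pass the test.

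Of 8 genes listed as primitive erythroid, 7 were lower. Beside the embryonic globins the list holds transcription factors such as Klf1, Lmo2 and Tal1, so the count is not one of embryonic globins alone. Lmo2 and Tal1 are counted again among the blood stem cell transcription factors. Hbb-y, an embryonic beta globin, had 5.81, 5.90 and 5.76 in Spinner cells and 12.53, 10.61 and 6.20 in FL cells, and Hbb-bh1, an embryonic beta-like globin, had 5.79, 5.60 and 6.04 in Spinner cells and 10.72, 10.32 and 6.34 in FL cells. In FL replicate 3 both embryonic globins were near the Spinner values and below background, whereas the other FL arrays were far higher. Hba-x, the embryonic alpha-like globin, had 5.98, 5.80 and 6.03 in Spinner cells and 9.72, 7.88 and 6.28 in FL cells and did not pass the test with all arrays (adjusted p = 0.082). Without FL replicate 3 all 8 genes were lower. Within the slide that holds all FL arrays 4 were lower, and the calls of Hbb-y (-4.02, adjusted p = 0.22) and Hbb-bh1 (-3.09, adjusted p = 0.26) were lost. The log2 fold change of Hbb-y was -5.75 without FL replicate 3 and -2.59 without FL replicate 1, where its call was lost (adjusted p = 0.10). That of Hbb-bh1 was -4.71 without FL replicate 3, and its call was lost without FL replicate 1 (-2.52, adjusted p = 0.082) or FL replicate 2 (-2.72, adjusted p = 0.066). Klf1, the erythroid Krüppel-like factor, had 6.37, 6.77 and 6.37 in Spinner cells and 13.40, 12.77 and 10.25 in FL cells (at least 41.0-fold lower, adjusted p = 1.7e-07). Its log2 fold change was -6.58 without FL replicate 3 and -5.01 without FL replicate 1.

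Megakaryocyte genes fell less uniformly. Of 17 measured, 7 were lower and 2 were higher, with a median of -0.45. Nfe2, a factor needed for platelet formation, had 6.19, 6.11 and 6.01 in Spinner cells and 13.19, 12.67 and 11.26 in FL cells (at least 48.0-fold lower). Pf4, platelet factor 4, had 5.45, 5.83 and 5.59 in Spinner cells and 8.39, 9.23 and 11.24 in FL cells, with FL replicate 3 the highest. Its log2 fold change was -3.19 without FL replicate 3 and -4.61 without FL replicate 1. Itga2b, the integrin CD41, was at 6.38, 6.58 and 6.36 in Spinner cells and 7.18, 7.26 and 6.62 in FL cells and did not pass the test (adjusted p = 0.35). F2r, a thrombin receptor found on many cell types, was 4.04-fold higher.

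Neutrophil granule genes were lower as a block in Spinner cells. Of 19 measured, 17 were lower and none was higher, with a median log2 fold change of -6.11. A count of 17 was also found without FL replicate 3 and within the slide that holds all FL arrays. Elane, neutrophil elastase, had 5.97, 5.99 and 6.21 in Spinner cells and 12.22, 12.32 and 13.03 in FL cells (at least 53.4-fold lower, adjusted p = 2.6e-16). Ctsg, cathepsin G, was at 5.99, 5.91 and 5.66 in Spinner cells and at 12.52, 12.72 and 13.14 in FL cells, and Prtn3, proteinase 3, was at 6.32, 6.22 and 6.27 in Spinner cells and at 12.89, 13.21 and 13.77 in FL cells. These proteases were close together on the FL arrays and at background on all Spinner arrays. Mmp8 and Mmp9, matrix proteases of late granules, did not pass the test. In BM cells 6 of the 19 genes were higher than in FL cells and none was lower. Elane averaged 14.39 ± 0.39 in BM cells and 12.53 ± 0.44 in FL cells.

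Of the 6 stefins measured, 4 were lower and 1 was higher in Spinner cells. Stfa2 had 6.00, 6.26 and 6.10 in Spinner cells and 12.23, 13.85 and 11.06 in FL cells (at least 48.2-fold lower). Its log2 fold change was -5.52 without FL replicate 2 and -6.92 without FL replicate 3. The higher gene was Cstb, the stefin B found in most cell types, with 13.41, 13.56 and 13.25 in Spinner cells and 11.18, 11.89 and 12.64 in FL cells. Its call was lost within the slide that holds all FL arrays (1.35, adjusted p = 0.087). The same 4 stefins were lower in BM than in FL cells, and Stfa1 averaged 9.05 ± 2.45 in BM cells and 14.56 ± 0.35 in FL cells (difference -5.51 ± 0.68, adjusted p = 1.7e-05).

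Of 26 monocyte and macrophage genes, 21 were lower in Spinner cells, and 19 were lower without FL replicate 3. Within the slide that holds all FL arrays 11 were lower. Csf1r, the receptor of macrophage growth factor, had 5.69, 5.73 and 6.00 in Spinner cells and 8.33, 8.88 and 11.31 in FL cells (at least 6.60-fold lower, adjusted p = 4.7e-06). F13a1, a coagulation factor subunit of monocytes, was at least 13.9-fold lower. The chemokines Ccl3, Ccl4 and Ccl9 were at least 19.9-fold, at least 29.5-fold and at least 20.5-fold lower. C1qb, a complement component of tissue macrophages, was chosen after its values were seen. It had 5.50, 5.49 and 5.60 in Spinner cells and 7.65, 8.54 and 12.62 in FL cells, and FL replicate 3 was far above the other arrays. The log2 fold change of Csf1r was -2.80 without FL replicate 3 and -4.29 without FL replicate 1, and that of C1qb -2.56 and -5.05. C1qb was not called within the slide (-4.0, adjusted p = 0.13).

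Of 17 genes of mast cells, basophils and eosinophils, 15 were lower. Cpa3, a mast cell carboxypeptidase, had 5.43, 5.78 and 5.52 in Spinner cells and 11.24, 12.49 and 8.89 in FL cells, and Tpsab1, a mast cell tryptase, had 6.26, 5.97 and 5.83 in Spinner cells and 9.46, 11.57 and 7.16 in FL cells. FL replicate 2 was the highest and replicate 3 the lowest for both genes. The log2 fold change of Cpa3 was -6.29 without FL replicate 3 and -4.49 without FL replicate 2, and that of Tpsab1 -4.50 and -2.30, all still called. The call of Tpsab1 was lost within the slide that holds all FL arrays (-3.57, adjusted p = 0.10), where 10 of the 17 genes were lower. Prss34, a basophil protease, had closer FL values, with 5.98, 5.83 and 5.95 in Spinner cells and 8.98, 9.59 and 9.11 in FL cells (at least 5.42-fold lower, adjusted p = 2.7e-12). The count was again 15 without FL replicate 3. Ear2 and Ear6, eosinophil ribonucleases with near-identical copies, were at least 26.9-fold and at least 11-fold lower.

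Lymphoid genes were lower where FL cells expressed them. Of 18 measured, 10 were lower, and 12 were above background on no Spinner array. Il7r, the interleukin 7 receptor, had 6.04, 5.60 and 5.77 in Spinner cells and 8.16, 8.87 and 11.11 in FL cells (at least 6.04-fold lower, adjusted p = 1.9e-06). Vpreb1, a surrogate light chain of early B cells, had 7.80, 7.22 and 7.39 in Spinner cells and 8.97, 10.46 and 13.36 in FL cells, and Cd79b, a signalling chain of the B cell receptor, had 7.13, 7.53 and 6.85 in Spinner cells and 9.09, 9.91 and 12.62 in FL cells. FL replicate 3 was much the highest array for these B-lineage genes, although the depletion had been directed at CD45R/B220. Without it, 9 genes were lower, and within the slide that holds all FL arrays 5 were. The log2 fold changes without FL replicate 3 were -2.72 for Il7r, -2.24 for Vpreb1 and -2.33 for Cd79b, and without FL replicate 1 they were -4.19, -4.44 and -4.09, all still called. Vpreb1 (-3.54, adjusted p = 0.12) and Cd79b (-3.69, adjusted p = 0.0505) lost their calls within the slide. Flt3, a receptor of multipotent progenitors, and Dntt, the terminal transferase of lymphoid precursors, were above background in neither group. The 1 higher gene was Tcf7, a factor of T cells and of other Wnt-responsive cells.

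Transcription factors of blood stem cells were lower as a group. Of 31 measured, 24 were lower and 1 was higher, with a median of -2.13, and 25 were above background on no Spinner array. Lmo2, a bridging protein of the Tal1 complex, had 6.98, 6.69 and 8.31 in Spinner cells and 13.73, 13.26 and 12.16 in FL cells (53.0-fold lower, adjusted p = 5.5e-07). Its partner Tal1 averaged 5.74 ± 0.06 in Spinner cells and 10.28 ± 1.77 in FL cells (SD, n = 3 each), at least 11.3-fold lower, and FL replicate 3 was the lowest FL array at 8.26. The log2 fold change of Tal1 was -5.55 without FL replicate 3 and -3.89 without FL replicate 1. Spinner replicate 3 was the highest Spinner array for Lmo2 but not for Tal1. Lyl1, a close relative of Tal1, was at 5.86, 6.25 and 6.12 in Spinner cells and at 10.66, 10.53 and 10.28 in FL cells, and Gfi1, a repressor of stem and myeloid cells, was at 6.58, 6.65 and 6.48 in Spinner cells and at 10.01, 10.22 and 10.38 in FL cells. Ikzf1, the lymphoid factor Ikaros, was at least 13.3-fold lower. For Lyl1, Gfi1 and Ikzf1 the FL arrays were close together and no Spinner array was above background. Runx1, Gata2 and Spi1, chosen after their values were seen for their known place in blood formation, were at least 2.86-fold, at least 8.69-fold and at least 2.04-fold lower. Gata2 averaged 6.64 ± 0.11 in Spinner cells, 8.11 ± 0.20 in undifferentiated ESCs and 9.91 ± 0.97 in FL cells, and its level in Spinner cells was below that of undifferentiated ESCs as well (difference -1.46 ± 0.34, adjusted p = 0.0086).

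Among 35 Hox genes, 5 were lower (14.3%) and none was higher, with a median of -0.04. The share of lower genes was near the 13.7% over all genes. Of the 35 genes, 32 were above background on no Spinner array and 29 on no FL array. Hoxa7 had 6.23, 6.15 and 6.10 in Spinner cells and 9.16, 9.51 and 8.81 in FL cells (at least 5.19-fold lower, adjusted p = 2.7e-12). Hoxa9, a factor of stem cell self-renewal, had 6.08, 6.00 and 6.07 in Spinner cells and 7.51, 7.84 and 7.00 in FL cells, and Hoxb4 had 6.26, 6.40 and 6.22 in Spinner cells and 7.09, 7.16 and 7.45 in FL cells. The FL arrays were modestly above background for these genes and the Spinner arrays at it, without overlap, as for 44.2% of all genes.

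Of 24 surface markers of blood stem and progenitor cells, 13 were lower and none was higher. Cd27, a costimulatory receptor, had 5.92, 5.70 and 6.12 in Spinner cells and 11.31, 12.01 and 10.66 in FL cells (at least 23.3-fold lower, adjusted p = 5e-14). Cd93, a marker of early progenitors, was at least 17.0-fold lower, and Cxcr4, the homing receptor, 8.53-fold lower, with 7.15, 6.75 and 7.41 in Spinner cells and 9.22, 9.94 and 11.42 in FL cells. Cxcr4 differed by -2.48 on the log2 scale without FL replicate 3. Cd34 was at least 4.40-fold lower. Cxcl12, the ligand of Cxcr4, was higher by its brightest probe (at least 4.12-fold), with another probe of opposite sign.

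Of 29 pan-leukocyte genes, 25 were lower and none was higher, with a median of -3.62. Coro1a, an actin regulator of leukocytes, had 7.75, 7.78 and 7.85 in Spinner cells and 13.23, 13.78 and 14.23 in FL cells (61.8-fold lower, adjusted p = 5.9e-08). Cd52, a leukocyte surface antigen, had 5.94, 5.96 and 6.02 in Spinner cells and 11.17, 12.12 and 13.40 in FL cells. Laptm5, a lysosomal membrane protein of blood cells, was high in both groups by comparison with background, at 11.08, 11.19 and 11.27 in Spinner cells and 13.78, 13.97 and 14.82 in FL cells. The groups did not overlap for any of these genes, which were named mostly for large changes, nor for 44.2% of all genes.

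Of 30 cytokine receptors, 18 were lower and 2 were higher, and without FL replicate 3 13 were lower. Epor, the erythropoietin receptor, had 6.02, 5.79 and 5.99 in Spinner cells and 10.68, 10.21 and 7.48 in FL cells, and Csf3r, the receptor of granulocyte growth factor, had 6.57, 6.24 and 6.37 in Spinner cells and 8.71, 9.24 and 9.14 in FL cells. Epor differed by -4.51 on the log2 scale without FL replicate 3 and by -2.91 without FL replicate 1, and its call was lost within the slide that holds all FL arrays (-3.47, adjusted p = 0.051), as was that of Il6st (0.95, adjusted p = 0.067). The higher genes were Il6st, the shared gp130 chain through which LIF acts on ESCs, and Ghr, the growth hormone receptor. Among 25 chemokines and receptors 9 were lower and 2 were higher.

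Antigen presentation genes were lower in Spinner cells. Of 12 MHC class II genes, 11 were lower, and 10 without FL replicate 3. The methods' t-test with Benjamini-Hochberg adjustment called none of the 12, with equal or unequal variances, and at an unadjusted p under 0.05 it found 3 and 2 lower. Within the slide that holds all FL arrays 3 were lower. H2-Ab1, a class II beta chain, had 6.27, 6.38 and 6.39 in Spinner cells and 8.31, 8.69 and 12.61 in FL cells, and Cd74, the invariant chain, had 6.14, 6.16 and 6.42 in Spinner cells and 8.46, 8.46 and 12.44 in FL cells. FL replicate 3 was far above the other FL arrays for both genes, and those arrays were still above every Spinner array. Without it the log2 fold changes were -2.15 for H2-Ab1 and -2.22 for Cd74, without FL replicate 1 they were -4.30 and -4.21, and without FL replicate 2 they were -4.11 and -4.21. Neither was called within the slide (-3.48 and -3.37, adjusted p = 0.14 for both). Of 23 class I and peptide loading genes, 15 were lower and none was higher, among them Tap2, a peptide transporter, with 6.79, 6.96 and 6.98 in Spinner cells and 9.43, 9.42 and 10.01 in FL cells. Of 36 interferon response genes, 17 were lower and 6 were higher. Irf8, a factor of monocytes and dendritic cells, had 6.19, 6.00 and 6.43 in Spinner cells and 8.99, 9.69 and 12.24 in FL cells, and Ifi47, an interferon-induced GTPase, had 5.43, 5.72 and 5.73 in Spinner cells and 8.35, 8.76 and 8.82 in FL cells. On the log2 scale Irf8 differed by -3.13 without FL replicate 3 and by -4.76 without FL replicate 1.

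**Figure D4:**
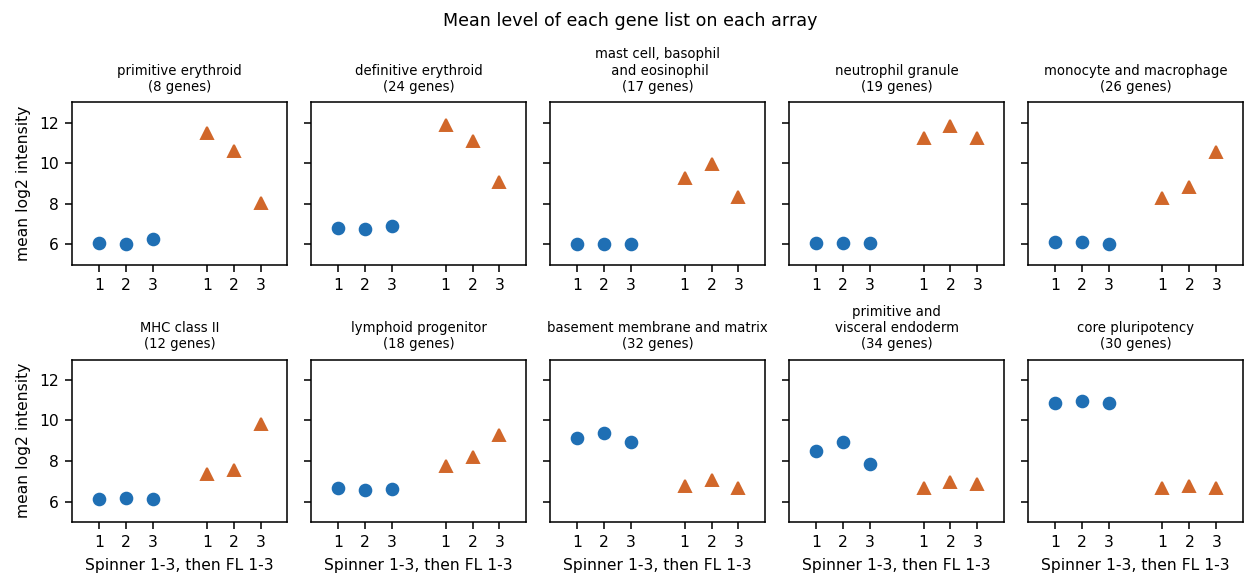
Mean log2 signal of the genes of 10 gene groups on each array (vertical axis), with the 3 Spinner arrays left of the 3 FL arrays. The primitive erythroid mean was 6.08, 6.04 and 6.27 on the Spinner arrays and 11.49, 10.62 and 8.06 on the FL arrays, and the MHC class II mean was highest on FL replicate 3 (9.85, against 7.37 and 7.56 on the other FL arrays).

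Metabolic genes differed in part. Of 24 genes of glycolysis and lactate, 13 were higher and 1 was lower in Spinner cells, with a median of 0.92. Slc2a3, a high-affinity glucose transporter, had 13.72, 13.87 and 13.65 in Spinner cells and 10.50, 10.56 and 9.78 in FL cells (11.1-fold higher, adjusted p = 1.5e-07). Aldoa, an aldolase, was 4.81-fold higher and Pkm, pyruvate kinase, 4.00-fold. The lower gene was Hk3, a hexokinase of myeloid cells, with 6.23, 5.98 and 5.86 in Spinner cells and 7.36, 7.54 and 9.23 in FL cells. Slc2a1, the glucose transporter of red cells and many others, had 13.30, 13.59 and 13.27 in Spinner cells and 13.86, 12.53 and 10.98 in FL cells, so the groups overlapped and the difference did not pass the test. Without FL replicate 1 it passed (1.63, adjusted p = 0.0023), and without FL replicate 3 the log2 fold change of Hk3 was -1.42 and 4 glycolysis genes were lower. Hk3 was not called within the slide that holds all FL arrays (-2.18, adjusted p = 0.053). Of 23 genes of one-carbon, threonine and nucleotide metabolism, 5 were higher and 3 were lower. The higher ones included Gldc and Tdh and also Slc7a3, a transporter of cationic amino acids (at least 55.4-fold), and Upp1, uridine phosphorylase (at least 49.6-fold). Tdh and Upp1 are also counted among the core pluripotency genes. Phgdh and Shmt2, enzymes of serine synthesis and use, were 1.90-fold and 2.05-fold lower. Neither was called within the slide that holds all FL arrays, and Phgdh lost its call without FL replicate 2 (-0.78, adjusted p = 0.094) or Spinner replicate 1 (-0.82, adjusted p = 0.086).

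Cell cycle genes were mostly not called. Of 36 measured, 11 were lower and 1 was higher. Top2a, a topoisomerase of dividing cells, had 11.88, 11.76 and 11.20 in Spinner cells and 11.63, 11.37 and 12.02 in FL cells, with overlap between the groups (adjusted p = 0.88). Among the lower genes were cyclins, inhibitors of their kinases and members of the Rb and E2F families. E2f2, a transcription factor of the E2F family, had 8.04, 7.65 and 7.69 in Spinner cells and 13.03, 11.70 and 11.59 in FL cells (19.9-fold lower, adjusted p = 2e-09). Ccnd2, cyclin D2, had 7.66, 7.30 and 8.95 in Spinner cells and 10.20, 10.76 and 10.51 in FL cells, with the call lost without Spinner replicate 2 (-2.18, adjusted p = 0.064), and Rb1, the retinoblastoma protein, was 4.96-fold lower. Of 52 cytosolic ribosomal protein genes, 6 were higher, by 1.32-fold to 2.34-fold, and none was lower. The share of higher genes, 11.5%, was below the 15.4% over all genes. With array medians in place of quantiles 2 ribosomal protein genes were higher and 5 were lower.

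Among 24 genes of dissociation and immediate early stress, 7 were lower and 2 were higher, whereas with slide as a block 3 were lower and 4 were higher. Fos had 11.44, 12.04 and 12.90 in Spinner cells and 12.68, 13.16 and 13.68 in FL cells, and Junb had 7.60, 7.87 and 8.13 in Spinner cells and 9.52, 9.47 and 9.90 in FL cells. Fos, an early response factor, overlapped between the groups and Junb did not. Fos was called with all arrays (-1.04, adjusted p = 0.031) and lost its call without FL replicate 2 or 3 or Spinner replicate 1 or 2 (-0.70, adjusted p = 0.22, without Spinner replicate 1) and within the slide that holds all FL arrays (-0.27, adjusted p = 0.70). Hspb1, a small heat shock protein, was the largest rise here, with 12.88, 12.88 and 12.16 in Spinner cells and 6.31, 6.26 and 6.47 in FL cells (at least 52.2-fold). Of 23 genes of shear and mechanical response, 9 were higher and 2 were lower. Yap1, the effector of the Hippo pathway, had 10.06, 10.06 and 9.95 in Spinner cells and 6.12, 5.74 and 6.02 in FL cells (at least 8.51-fold, adjusted p = 6.7e-14), and its partner Tead2 was 13.2-fold higher. Klf2, a factor raised by flow in endothelium and also a naive pluripotency factor, had 12.06, 12.25 and 12.37 in Spinner cells and 8.82, 9.21 and 9.75 in FL cells. Klf2 averaged 11.67 ± 0.53 in undifferentiated ESCs, from which the Spinner cells did not differ detectably (0.56 ± 0.50, adjusted p = 0.70). Nos3, endothelial nitric oxide synthase, was above background in neither group.

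Fetal-type RNA-binding proteins were among the genes that both groups expressed. Of 13 genes of the Lin28, Igf2bp and Hmga2 programme, 5 were higher and 4 were lower in Spinner cells. Igf2bp1, which stabilizes growth-related messages, had 12.57, 12.58 and 12.72 in Spinner cells and 9.35, 10.18 and 8.64 in FL cells (9.41-fold higher, adjusted p = 1.5e-06). Igf2bp3, chosen after its values were seen, had 11.66, 11.57 and 12.28 in Spinner cells and 10.90, 11.56 and 11.69 in FL cells, with overlap (0.46 ± 0.19, adjusted p = 0.091), and passed the test without FL replicate 3 (0.61, adjusted p = 0.033). In BM cells Igf2bp3 averaged 5.78 ± 0.22, below the FL level of 11.38 ± 0.42. Bcl11a, the repressor of fetal globins, had 6.77, 7.06 and 6.94 in Spinner cells and 10.99, 11.12 and 10.80 in FL cells (16.5-fold lower).

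Of 25 imprinted genes, 10 were higher and 1, Gnas, was lower. Mest had 10.76, 9.97 and 11.89 in Spinner cells and 6.28, 6.44 and 6.42 in FL cells (at least 15.4-fold), and Igf2, the fetal growth factor, had 12.92, 12.55 and 13.48 in Spinner cells and 10.49, 10.90 and 8.39 in FL cells (8.33-fold). Spinner replicate 3 was the highest for both genes. Igf2 differed by 2.29 on the log2 scale without FL replicate 3. H19, the non-coding partner of Igf2, had 9.09, 9.0 and 8.82 in Spinner cells and 9.55, 9.95 and 9.75 in FL cells and did not pass the test (adjusted p = 0.095, and 0.045 within the slide that holds all FL arrays). Of 19 genes of DNA methylation and demethylation, 4 were higher and 4 were lower (21.1% each, against 15.4% and 13.7% over all genes). Dnmt3b, a de novo methyltransferase, was high in both groups, at 13.21, 13.52 and 13.17 in Spinner cells and 12.56, 12.91 and 11.60 in FL cells (adjusted p = 0.080, and 0.041 without FL replicate 2), and the maintenance enzyme Dnmt1 differed by -0.17 ± 0.16 (adjusted p = 0.53).

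Markers of other cells that could be present were read in the same way, against shares over all genes of 15.4% higher and 13.7% lower. Of 28 endothelial genes, 6 were higher and 6 were lower (21.4% each), with Icam2 at least 6.26-fold lower and Cldn5 at least 2.24-fold higher. Of 25 neural genes, 5 were higher (20.0%) and 1 was lower (4.0%), while Sox1, Pax6 and Pax3 were above background in neither group. Tubb2b, a tubulin of neurons and early embryos, had 13.23, 13.30 and 13.28 in Spinner cells and 7.24, 7.78 and 10.65 in FL cells, with a log2 fold change of 5.77 without FL replicate 3 and 4.06 without FL replicate 1. Without FL replicate 1, FL replicate 2 or Spinner replicate 3 the neural genes called higher were 3. Of 24 hepatocyte genes, 6 were lower (25.0%) and 2 were higher (8.3%). Afp, Apoa2 and Trf are lower genes counted here and in the extraembryonic endoderm group. Albumin (Alb) was at 5.59, 5.51 and 5.93 in Spinner cells and 5.74, 5.38 and 5.72 in FL cells, at background on all arrays. The hepatocyte genes called lower were 3 without FL replicate 1 or Spinner replicate 2, and 2 without FL replicate 2. Of 23 fibroblast and mesenchyme genes, 6 were higher (26.1%) and 2 were lower (8.7%). The collagens Col1a1, Col1a2 and Col3a1, which feeder fibroblasts express strongly, were above background in neither group. Other members of this list went the other way. Of the 23 genes, 9 were above background on all Spinner arrays, and 5 were at least 5-fold higher, among them Ccn2. Whether feeder cells were present was not tested. Of 11 genes often used for scaling, 5 were lower and 1, Gapdh, was higher. The part of these genes in the results above was not tested.

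Sex-linked genes differed between the sources. Xist, the RNA of the inactive X chromosome, had 6.06, 5.97 and 5.95 in Spinner cells, at background, and 8.56, 8.73 and 8.70 in FL cells, above it on all arrays. The Y-linked Eif2s3y had 11.47, 11.50 and 11.34 in Spinner cells and 10.05, 9.63 and 10.04 in FL cells, above background throughout. Every FL array thus held transcripts of both kinds, and every Spinner array only those of the Y chromosome.

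The other groups of the series place these levels. Nanog averaged 13.19 ± 0.13 in Spinner cells, 12.60 ± 0.49 in undifferentiated ESCs, 10.76 ± 2.65 in Static cells (SD, n = 3 each) and 13.46 ± 0.02 in Synthecon cells (n = 2 set means), and was at 6.03 ± 0.04 in BM cells and 6.06 ± 0.24 in FL cells. The Spinner mean was above the Static mean (2.43 ± 0.67, adjusted p = 0.017). That SE is pooled over all groups and does not carry the wide spread of the Static arrays (SD 2.65), so this p-value is too small for these groups. The Spinner level was not detectably different from that of undifferentiated ESCs (0.59 ± 0.67, adjusted p = 0.80). Mpo averaged 5.80 ± 0.17 in Spinner cells, 5.56 ± 0.08 in undifferentiated ESCs, 10.69 ± 3.14 in Static cells and 6.24 ± 0.40 in Synthecon cells, against 14.73 ± 0.13 in BM cells and 14.81 ± 0.22 in FL cells. Hba-a1 averaged 6.36 ± 0.92 in Spinner cells and 12.86 ± 2.71 in Static cells, against 14.96 ± 0.22 in FL cells. Over all genes, 804 (4.47%) were higher and 561 (3.12%) lower in Spinner cells than in undifferentiated ESCs, and 1335 (7.43%) were higher and 1410 (7.85%) lower in Spinner than in Static cells, while 264 (1.47%) were higher and 131 (0.729%) lower in BM than in FL cells. These comparisons share arrays with that of Spinner and FL cells.

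**Figure D5:**
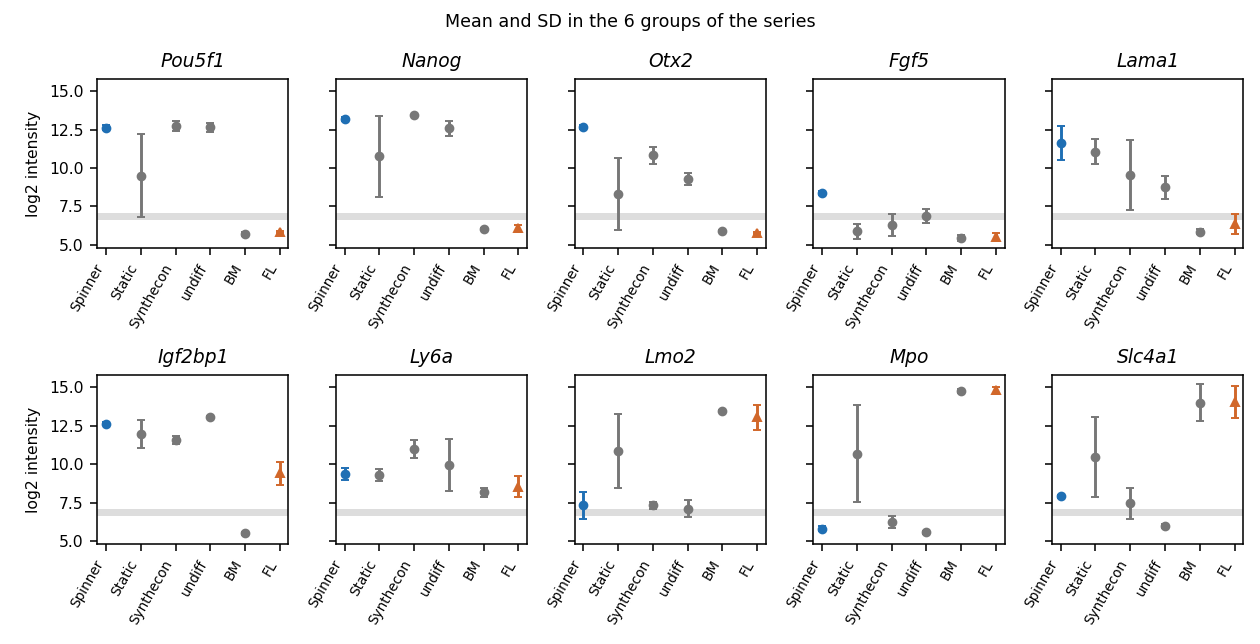
Mean log2 signal (vertical axis, error bars SD) of 10 genes in Spinner, Static, Synthecon, undifferentiated ESC, BM and FL samples (n = 3 arrays, and n = 2 set means for Synthecon), with a grey band at the lowest values above background, 6.71 to 7.02. Nanog is at 13.19 in Spinner cells and 12.60 in undifferentiated ESCs, and Mpo is at 5.80 in Spinner cells and 14.81 in FL cells.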

How the data were processed

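Total RNA of each sample was labelled and read on 1 Illumina MouseRef-8 array. The authors summarized beads, subtracted background, normalized all 23 arrays by quantiles and deposited log2 values for 25697 probes, which were used without further scaling. They match the background-subtracted signals after an offset of 60.2 and quantile normalization, which compresses dim differences. The deposited background-subtracted intensities served an alternative normalization. The detection p-values deposited with them were computed by the array software against negative control beads. Sheets with the authors' group means, ratios and test p-values, and a second detection sheet, were not used.

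Probes took current symbols by transcript accession (24202 of 25697, 94.2%), and the brightest probe stood for each gene. A mean per group was fitted to all 23 arrays with limma 3.58.1 in R 4.3.3 (eBayes with trend), and the Spinner minus FL contrast was adjusted over all probes by Benjamini-Hochberg at 0.05. Folds against a group below background on all its arrays are lower bounds, with the dim values raised to the lowest value above background on each array. Synthecon arrays form 2 sets of near repeats, whose means give n = 2. Named genes are the 15 largest rises and falls with no overlap, up to 6 members and the leading 3 symbols of each list, Ly6a and Kit. Genes beyond these are named as the only members of a small count, as holders of a promoter word, or where the text says that they were chosen after their values were seen. The members and the 42 lists were chosen with earlier results of these data known. Lists share members, so their counts are not independent. The fit was checked on simulated data, and alternatives of normalization, test, filter, slide and samples were run. A few genes of these lists are not reported here.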

Additional observations from a re-analysis of the deposited data

How the results depend on the processing

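No called gene named here changed sign, but some lists did. Cytosolic ribosomal proteins had 6 higher and 0 lower, and 2 higher and 5 lower with array medians in place of quantiles, where their median was -0.0078. Immediate early genes had 2 higher and 7 lower, and 4 higher and 3 lower with slide as a block. Hepatocyte genes had 6 lower, and 0 with the methods' t-test of equal or unequal variances after Benjamini-Hochberg adjustment over all probes. The lowest adjusted p of a lower gene was 0.051 and 0.12 in these t-tests, and at an unadjusted p under 0.05 they found 4 and 2. The small medians of the DNA methylation, endothelial and Hox lists also crossed 0 in 1 or 2 settings. Leaving out 1 array at a time gave 5696 to 6430 probes called (2903 to 3221 higher, 2793 to 3209 lower), 995 to 1051 at 5-fold (483 to 529 higher, 498 to 532 lower), and 443 to 462 genes called in the lists together. Within lists it gave 20 to 22 definitive erythroid, 17 to 17 neutrophil granule, 21 to 24 blood stem cell transcription factor and 23 to 26 pan-leukocyte genes lower, and 26 to 28 core pluripotency and 22 to 22 basement membrane genes higher. The t-test of the methods, run over all probes without their ANOVA filter, called 2106 probes and 8 definitive erythroid genes lower with equal variances. With unequal variances it called 2475 probes (1588 higher, 887 lower), 588 at 5-fold (214 lower), 196 list genes, and 1 definitive erythroid, 10 transcription factor, 12 pan-leukocyte and 11 basement membrane genes. The share of higher probes among those called was 50.4% with limma, 58.6% and 64.2% with these tests, 60.5% within the slide that holds all FL arrays and 45.4% with array medians (2915 higher, 3511 lower). That slide called 3835 probes (2319 higher, 1516 lower) and 13 definitive erythroid genes, with only 1 Spinner array, assumed to vary as the other groups do. Normexp correction with a smaller offset called 765 probes 5-fold higher. Replicate numbers did not pair the samples (correlations of 0.0302, -0.0375 and -0.0159 between samples of the same number), and a replicate block called 3553 probes higher and 3010 lower. Of the 157 named genes called, 1 lost its call with that block, 7 with slide as a block, 23 within the slide, 31 with the t-test of equal variances, 68 with that of unequal variances, 5 with Spinner replicates 1 and 2 as 1 sample and 3 with Synthecon as 2 samples (3390 probes higher, 3246 lower), and none reversed. Of the 42 lists, 27 kept the count of their more frequent direction within 1.5 times with the t-test of equal variances and 8 with that of unequal variances. Apart from glycolysis, counts of at most 2 genes in a list moved by at most 2 without 1 array. The cause of these losses was not tested. Signals below background set the limit: 9382 of 17973 genes were above background on no Spinner array and 9727 on no FL array.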
